A study of Mus musculus with 6 samples.

Results

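Aminoacyl-tRNA synthetases join each amino acid to its transfer RNA and so supply the ribosome with charged tRNAs. The genes described here were found by symbol, as rows of the deposited gene table. Their names have the form of a synthetase gene (for example Aars, Vars2 or Eprs). The symbol rule used no measured value, though the members were chosen with earlier results of these data known. Of the 38 rows that the rule found, 1 is not reported here. Described are 37 of the 55401 genes in the table, of which 21 encode enzymes of the cytosol and 16 encode enzymes of the mitochondrion. The cells were immortalised fibroblasts of mouse embryos (iMEF), left untreated (WT in the titles) or kept for 24 h with the PROTAC dTAG-13, and RNA was sequenced from both groups. In both groups a lentiviral human ASH2L with an N-terminal FKBP12 tag replaced the mouse protein, since exon 4 of the endogenous Ash2l alleles had been deleted by an inducible Cre-ER. dTAG-13 recruits a ubiquitin ligase to the FKBP12 tag, so that the fusion protein, a core subunit of the KMT2 complexes that methylate histone H3 at lysine 4, is degraded. Since the compound acts on the protein, RNA values give no check of the depletion. The legend of the study names 1 clone, NG3, for this comparison, and dTAG-13-treated cells without the tag were not among the libraries, so an effect of the compound on RNA and an effect of ASH2L loss cannot be told apart.

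A cell holds separate sets of synthetases for its separate translation systems. The cytosolic enzymes serve the ribosomes that translate nuclear messages, and several of them sit together in the multi-tRNA synthetase complex on the scaffold proteins Aimp1, Aimp2 and Eef1e1. The mitochondrial enzymes, whose gene names mostly end in 2, are made in the cytosol and imported to translate the few messages of mitochondrial DNA. Many cytosolic synthetase genes are known targets of ATF4, the transcription factor of the amino acid and integrated stress response, which binds C/EBP-ATF response elements (CARE) together with a C/EBP partner.

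By the labels 3 libraries were untreated and 3 received dTAG-13, yet the mean counts of weakly expressed genes went against a total of that size. A legend of the study also names fewer replicates, and the 24 h of the titles is longer than any time given in the protocol for the treatment. All 7923 genes with a mean normalized count above 0 and up to 2 were whole-number combinations of 5 distinct values, each the worth of a single read in a library, within 1e-09. The table holds 1 row per gene with no column per library, so the values of single libraries and their depth are unknown, and each fold change, standard error (SE) and p-value given here is the deposited one, from the authors' DESeq2 test. Nothing in the labels says that the libraries came from separate cultures, and the p-values then measure only the spread between these libraries. The fibroblast identity was taken from the study, and 10 marker genes were read beside it. All were tested, with mean normalized counts from 5.68 (the proteoglycan gene Dcn) to 109792 (the collagen gene Col1a2). Dcn lay below the highest of the other markers given next, so the ranges of both sets overlap. Of 10 epithelial, blood and endothelial markers, 5 were at a mean of 0 and the highest mean was 39.4, for Cd14, which was lower after dTAG-13 (−1.30 ± 0.44 on the log2 scale). Of the fibroblast markers 4 were lower (such as Thy1, −1.36 ± 0.20) and 2 higher (such as Fn1, 0.93 ± 0.16), and the part of such shifts in the synthetase values was not tested. Of 16773 tested genes, meaning those with an adjusted p-value, 19.9% passed an adjusted p under 0.05, the threshold for calls in the text, with 12.5% lower and 7.45% higher after dTAG-13.

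The promoters of the synthetase genes that hold a CARE core are shown first, since this is the letter pattern that ATF4 is known to bind. The core was searched as TGATGNAA, or TTNCATCA on the other strand, in 300 bases around the RefSeq start of each gene (GRCm38.p6, 250 bases before the start and 50 from it on). A promoter was at hand for 28 of the 37 genes, 14 cytosolic and 14 mitochondrial. The core was found in 5 of the 14 cytosolic promoters, those of Gars, Aars, Tars, Yars and Iars, and in 0 of the 15 promoters of the 14 mitochondrial genes. Of the 13 genes that were lower after dTAG-13, 6 had no promoter to search (Vars, Nars, Lars, Cars, Wars and Rars), and 3 of the other 7 held the core, as did 2 of the 7 searched cytosolic genes that did not pass the test. Among all 32851 promoters of that length, 3.97% held it, and among the 13886 promoters of tested genes 2.33% did. Of 34 promoters of a list of ATF4 pathway genes, 10 held it. A match is a description of the letters and not a measured binding site.

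Of the 5 genes, Gars, Aars and Tars passed the test and their promoters are printed whole, with the match to the core in capitals. They lie at chr6:55037751-55038050 (plus strand), chr8:111033592-111033891 (plus strand) and chr15:11399609-11399908 (minus strand).
Gars: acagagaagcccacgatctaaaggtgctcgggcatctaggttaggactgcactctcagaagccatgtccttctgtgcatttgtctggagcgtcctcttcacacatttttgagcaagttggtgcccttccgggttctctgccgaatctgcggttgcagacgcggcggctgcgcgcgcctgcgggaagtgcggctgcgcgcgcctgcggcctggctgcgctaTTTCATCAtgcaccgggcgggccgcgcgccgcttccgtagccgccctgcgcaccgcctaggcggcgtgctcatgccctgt
Aars: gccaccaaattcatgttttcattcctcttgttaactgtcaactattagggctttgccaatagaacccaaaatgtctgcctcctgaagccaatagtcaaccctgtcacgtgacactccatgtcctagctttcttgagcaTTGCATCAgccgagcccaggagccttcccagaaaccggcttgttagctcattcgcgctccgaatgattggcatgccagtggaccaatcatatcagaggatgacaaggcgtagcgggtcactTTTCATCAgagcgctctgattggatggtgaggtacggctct
Tars: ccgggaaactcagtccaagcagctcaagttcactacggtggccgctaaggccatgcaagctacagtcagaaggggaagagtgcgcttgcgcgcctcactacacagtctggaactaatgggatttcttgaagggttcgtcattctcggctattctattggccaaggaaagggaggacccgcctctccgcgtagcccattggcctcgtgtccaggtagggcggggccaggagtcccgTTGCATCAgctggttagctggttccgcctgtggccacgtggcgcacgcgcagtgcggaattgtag
The match lay at positions −30 to −23 from the start in Gars and −15 to −8 in Tars, while Aars had 2 matches, at −112 to −105 and at 10 to 17.

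The matches of Yars and Iars, which did not pass the test, are shown with 16 bases on either side, at chr4:129189890-129189929 and chr13:49682121-49682160 (both plus strand).
Yars: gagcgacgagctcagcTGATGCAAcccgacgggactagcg
Iars: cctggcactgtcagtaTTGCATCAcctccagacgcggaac
Both matches lay just after the start, at 4 to 11 in Yars and 8 to 15 in Iars. The letters of the core were TTGCATCA, or TGATGCAA read from the other strand, in Tars, Yars, Iars and the upstream match of Aars, and TTTCATCA in Gars and the downstream match of Aars.

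After 24 h of dTAG-13 the transcripts of most cytosolic synthetases were lower, while those of the mitochondrial enzymes with 1 exception did not pass the test. Of the 21 cytosolic genes 13 were lower and 0 were higher, against 12.5% of all tested genes lower. In the DESeq2 test at an unadjusted p under 0.05 the cytosolic counts were 16 lower and 0 higher, against 17.9% and 12% of all tested genes. Of the 16 mitochondrial genes 0 were lower and 1, Cars2, was higher, against 12.5% and 7.45% of all tested genes. At an unadjusted p under 0.05 in the same test, 2 of the 16 were lower, against 17.9%. With 16 genes, such counts are too small to set apart from these shares. All 37 genes passed the filter on low counts. In such bulk RNA, fewer cells that express a gene and less RNA of it per cell cannot be told apart. The median log2 fold change was −0.57 for the cytosolic and −0.05 for the mitochondrial genes, against −0.02 over all tested genes. Cytosolic genes had a negative log2 fold change in 20 of 21 cases and mitochondrial genes in 10 of 16, against 52.3% of all tested genes.

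**Figure D1:**
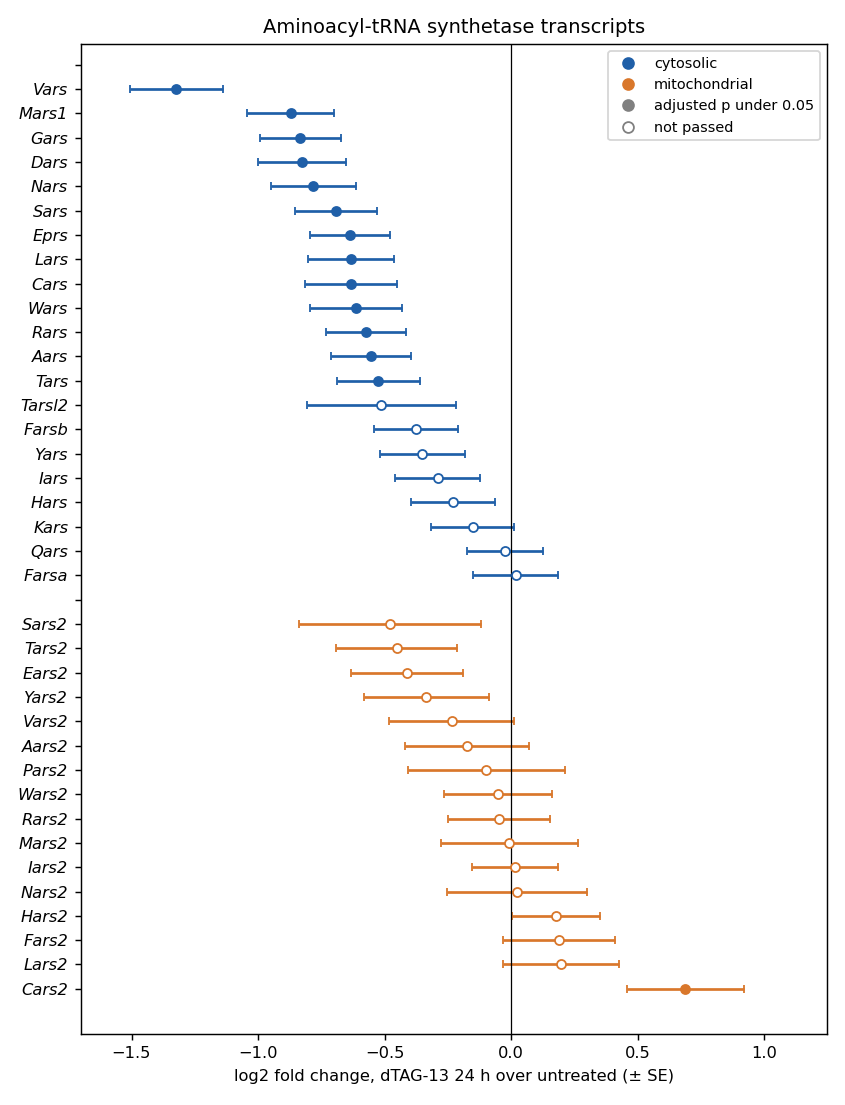
Log2 fold change of each synthetase gene, dTAG-13 for 24 h over untreated (x axis, point ± SE, from the deposited table), with 21 cytosolic genes above and 16 mitochondrial genes below. Filled points passed an adjusted p of 0.05. All 13 filled cytosolic points lie between −1.32 and −0.52, and the filled mitochondrial point is Cars2 at 0.69.

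The largest fall among the members was that of Vars, which encodes the valine enzyme of the cytosol. Vars (ENSMUSG00000007029.16, GRCm38 chromosome 17, 35000987 to 35016322) had a mean normalized count of 678 and a log2 fold change of −1.32 ± 0.18 (SE), which is 2.50 times lower, with a DESeq2 adjusted p of 4.2e-12. The next largest fall had a log2 fold change of −0.87, and the 95% intervals of the pair overlap.

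A group of 4 genes followed with falls of 1.72 to 1.83 times. Mars1, for methionine, which is needed at every start of translation, had a log2 fold change of −0.87 ± 0.17 (chromosome 10, 127296221 to 127311786, adjusted p = 1.5e-06 in DESeq2). Gars, for glycine, whose product serves the cytosol and the mitochondrion, had −0.83 ± 0.16 (chromosome 6, 55038007 to 55079500, adjusted p = 9.3e-07). Dars, for aspartate, had −0.83 ± 0.17 and an adjusted p of 8e-06. Nars, for asparagine, had −0.78 ± 0.17 and an adjusted p of 1.3e-05. These 4 values lie within their standard errors of each other, so their order cannot be read.

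The remaining 8 genes that fell were closely spaced. Sars, for serine, stood at −0.69 ± 0.16. Eprs, a fused enzyme for glutamate and proline, stood at −0.64 ± 0.16, and Lars, for leucine, at −0.63 ± 0.17. All of these are among the more deeply counted members, with mean normalized counts of 2782, 6179 and 3271. Cars, for cysteine, had −0.63 ± 0.18, Wars, for tryptophan, had −0.61 ± 0.18, and Rars, for arginine, had −0.57 ± 0.16. The smallest falls that passed were those of the alanine enzyme Aars at −0.55 ± 0.16 and of the threonine enzyme Tars at −0.52 ± 0.16, with adjusted p-values of 0.0018 and 0.005 in DESeq2. The call of Tars was lost after recentring on housekeeping genes (adjusted p = 0.083, range of the adjusted p over its alternatives 0.0034 to 0.083).

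Not all enzymes of the cytosol passed. Among the 8 that did not, the alpha subunit of the phenylalanine enzyme, Farsa, was the one cytosolic gene with a positive value, 0.02 ± 0.17, while its beta subunit Farsb had −0.38 ± 0.17 (adjusted p = 0.065). Qars, for glutamine, had −0.02 ± 0.15 and Kars, for lysine, which like Gars serves both compartments, had −0.15 ± 0.16. Mean normalized counts of 1869, 1617, 1342 and 1829 stood behind these 4 genes, so that falls of the size of Dars or Nars were within reach of the test. The 95% intervals ran from −0.31 to 0.35 for Farsa, −0.32 to 0.27 for Qars and −0.47 to 0.17 for Kars, and none of the 3 reached the cytosolic median of −0.57. Hars, for histidine, had −0.23 ± 0.17, Iars, for isoleucine, −0.29 ± 0.17 and Yars, for tyrosine, −0.35 ± 0.17. Tarsl2, a paralog of Tars, had −0.51 ± 0.29 at a mean normalized count of only 86.0, so a fall as large as that of Tars could not be told from none.

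Cytosolic genes fell both inside and outside the multi-tRNA synthetase complex and in both structural classes. Each count below is to be read beside 12.5% of all tested genes lower. Within the mean counts of the cytosolic members other than Tarsl2, that share was 18.1%. In the complex, 5 of 8 genes fell (Dars, Eprs, Lars, Mars1 and Rars), with a median log2 fold change of −0.60. Outside it 8 of 13 fell, with a median of −0.55. Class I enzymes, whose catalytic domain has a Rossmann fold, fell in 6 of 9 cases (median −0.61), and class II enzymes, built on an antiparallel sheet, in 6 of 11 (median −0.52). The fused Eprs holds both kinds and was counted in neither class. The cytosolic genes were also divided by a known link to ATF4. Of 13 synthetases listed as ATF4 targets from general knowledge, 11 fell, with a median of −0.63 and all 13 values negative. Of the 8 other cytosolic genes 2 fell, Dars and Rars, with a median of −0.30, a count too small to set apart from those shares. The difference between these lists was not tested, and the lists were chosen with earlier results of these data known.

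The 16 mitochondrial enzymes had 1 call, higher, against 7.45% of all tested genes higher, and a spread on both sides of 0. Cars2 (ENSMUSG00000056228.10, chromosome 8, 11513977 to 11550783), the cysteine enzyme of the mitochondrion, rose by 0.69 ± 0.23 on the log2 scale, which is 1.61-fold, with an adjusted p of 0.0062 in DESeq2 and a mean normalized count of 139. The next highest values were 0.20 ± 0.23 for Lars2, 0.19 ± 0.22 for Fars2 and 0.18 ± 0.18 for Hars2, for leucine, phenylalanine and histidine. The values of Nars2, Iars2, Mars2, Rars2, Wars2 and Pars2, which serve asparagine, isoleucine, methionine, arginine, tryptophan and proline, lay between −0.10 and 0.02. The 95% interval of each of these genes other than Cars2 included 0.

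The lower end of the mitochondrial set reached values near those of the cytosolic enzymes. Sars2, for serine, had −0.48 ± 0.36, Tars2, for threonine, −0.45 ± 0.24, and Ears2, for glutamate, −0.41 ± 0.22. Yars2, for tyrosine, had −0.34 ± 0.25, Vars2, for valine, −0.23 ± 0.25, and Aars2, for alanine, −0.17 ± 0.24. The 95% intervals of 7 mitochondrial genes (these 6 and Pars2) still included the cytosolic median of −0.57, whereas those of the other 9 lay above it.

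Mitochondrial enzymes were counted by fewer reads, and this moved with the compartment. Their mean normalized counts ran from 31.3 (Pars2) to 370 (Iars2), and those of the cytosolic genes from 500 (Wars) to 6179 (Eprs), apart from Tarsl2. The median SE was 0.23 for the mitochondrial and 0.17 for the cytosolic genes. Among the 5898 tested genes within the mean counts of the mitochondrial members, 17.8% were called lower and 9.36% higher. Among the 3486 within those of the cytosolic members other than Tarsl2, 18.1% were lower and 8.84% higher. These overall rates do not show whether a fall of a given size was as likely to pass in both ranges. Count and compartment moved together, so their parts in the gap between compartments cannot be told apart. The deposited fold changes were shrunken towards 0, which acts more strongly on genes with few reads, and the part of this in the gap between compartments was not tested. Iars2, the mitochondrial gene with the smallest SE, stood at 0.02 ± 0.17, and it shares exonic bases with a neighbour (given below).

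**Figure D2:**
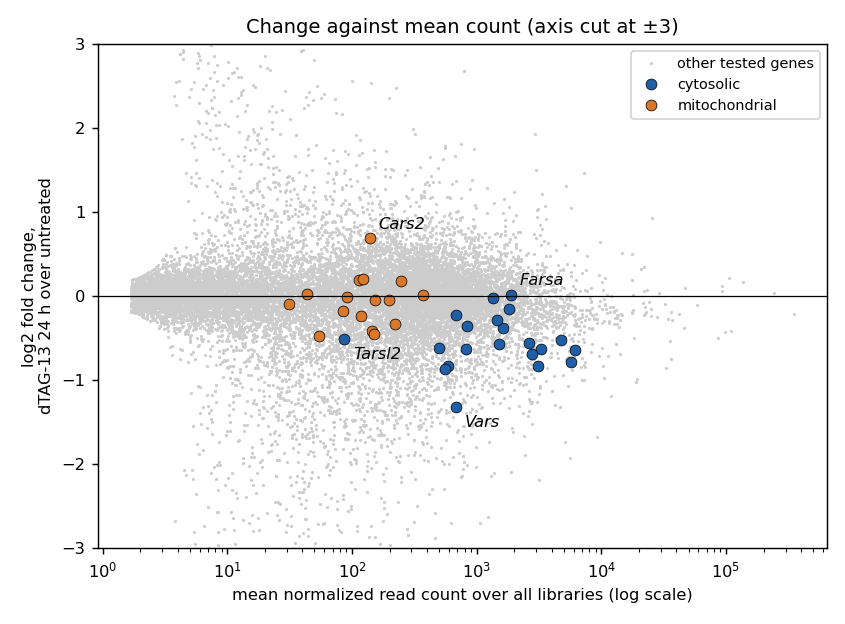
Log2 fold change of dTAG-13 for 24 h over untreated (y axis) against the mean normalized read count over all libraries (x axis, log scale) for the 16773 tested genes, with cytosolic synthetases in blue and mitochondrial ones in orange. The y axis stops at 3 in either direction, which leaves out 172 other genes. Apart from Tarsl2 the cytosolic points lie to the right of the mitochondrial ones, from a mean of 500 upwards.

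Enzymes for the same amino acid were set side by side, as 18 pairs of a cytosolic and a mitochondrial gene. Eprs entered with both Ears2 and Pars2, and Fars2 and Tars2 each entered with both of their cytosolic partners. The cytosolic log2 fold change was below the mitochondrial one in 18 of 18 pairs, with a median difference of −0.47. The errors were combined as if the genes of a pair were independent, which they are not, since the same libraries stand behind both, and no p-value was computed.

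The widest gap was that of the cysteine enzymes, with Cars at −0.63 and Cars2 at 0.69, a difference of −1.32 ± 0.29 (combined SE). The valine enzymes followed with −1.09 ± 0.31. Differences of −0.86 ± 0.32, −0.83 ± 0.29 and −0.81 ± 0.32 were found for methionine, leucine and asparagine. In these and in the pairs of Farsb, Wars and Rars, 8 in all, the 95% interval of the difference lay below 0. It included 0 in the other 10 pairs. The smallest gaps were those of tyrosine (Yars and Yars2, −0.01 ± 0.30, 95% interval −0.60 to 0.57) and of both threonine pairs (Tarsl2 and Tars2, −0.06 ± 0.38, 95% interval −0.80 to 0.68, and Tars and Tars2, −0.07 ± 0.29, 95% interval −0.64 to 0.49), in which the mitochondrial value was itself negative.

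**Figure D3:**
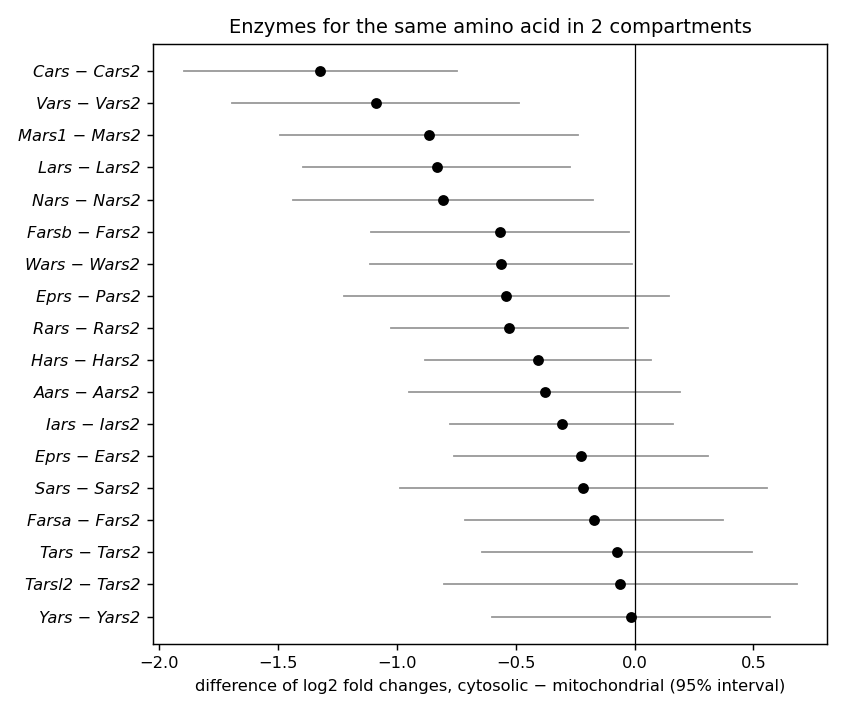
Difference between the log2 fold changes of cytosolic and mitochondrial enzymes for the same amino acid (x axis, point with 95% interval from the combined SE) for 18 pairs. All points lie below 0, from −1.32 for cysteine to −0.01 for tyrosine, and 8 intervals do not reach 0.

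Some members share transcribed sequence with neighbours. Of the 13 genes that fell, 3 share annotated exonic bases with another gene (Aars, Cars and Mars1), and of all 37 members 14 do. Aars shares 1326 exonic bases on the same strand with Exosc6, an exosome subunit gene whose mean is listed at 0. Mars1 shares 68 exonic bases with Ddit3 on the opposite strand, the gene of the stress factor CHOP, which had a log2 fold change of −1.08 ± 0.18. The labels and the methods name different library kits, so it is not known whether strand was kept, and reads in the shared part of such genes cannot be told apart. Cars2 shares 422 exonic bases with Naxd on the opposite strand, whose own value was 0.02 ± 0.18. Iars2 shares 2034, the most of any member, with Rab3gap2 on the opposite strand, which stood at 0.08 ± 0.34. Hars and Hars2, which are transcribed away from each other, share 195 exonic bases. Yars shares 30 with C77080, which stood at −0.96 ± 0.30. The part of these overlaps in the values was not tested.

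The genes that work with the synthetases were counted against the same background, 12.5% of all tested genes lower and 7.45% higher. None of the 3 scaffold genes of the multi-tRNA synthetase complex passed the DESeq2 test, also at an unadjusted p under 0.05. Aimp1 had a log2 fold change of −0.07 ± 0.16 and Eef1e1 had −0.34 ± 0.23, while Aimp2 had a mean normalized count of only 2.44. Of 9 genes for the export and end processing of tRNA, 1 fell, a share near that background. It was Xpot, which carries mature tRNAs out of the nucleus (−0.61 ± 0.16, adjusted p = 0.00057 in DESeq2). The RNA chaperone Ssb had −0.37 ± 0.16 (adjusted p = 0.065) and the enzyme Trnt1, which adds the CCA end that receives the amino acid, −0.00 ± 0.20. The median of these 9 genes was −0.22, and 4 of them were lower at an unadjusted p under 0.05, against 17.9% of all tested genes. Of 5 tested partners of mitochondrial charging, 0 passed, also at an unadjusted p under 0.05, with values from −0.08 ± 0.20 for the amidotransferase subunit Qrsl1 to 0.26 ± 0.20 for the formyltransferase Mtfmt.

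The ATF4 pathway list, set from general knowledge with earlier results of these data known, went in the direction of the cytosolic synthetases. Its counts are thus a description and no independent test. Of its 32 genes, 24 were lower and 0 higher in the DESeq2 test, against 12.5% and 7.45% of all tested genes (28 and 0 at an unadjusted p under 0.05, against 17.9% and 12%), with a median log2 fold change of −0.99. Atf4 itself had −1.0 ± 0.18, and the members with the smallest p-values were the cysteine synthesis enzyme Cth at −3.15 ± 0.20, the lipoprotein receptor Vldlr at −1.92 ± 0.19, the serine synthesis enzyme Psph at −1.73 ± 0.18 and the serine hydroxymethyltransferase Shmt2 at −1.52 ± 0.16. The one positive value was 0.06 ± 0.42 for the glycine transporter Slc6a9. Whether the falls of the synthetases depend on Atf4 was not tested.

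**Figure D4:**
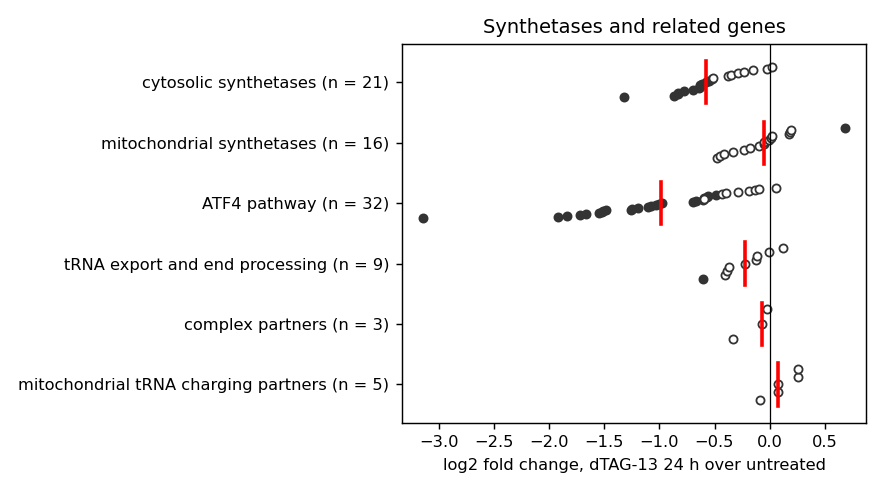
Log2 fold change, dTAG-13 for 24 h over untreated (x axis), of the tested genes of 6 groups, with filled points past an adjusted p of 0.05 and the median as a red bar. The medians are −0.57 for cytosolic and −0.05 for mitochondrial synthetases, −0.99 for the ATF4 pathway, −0.22 for tRNA export and end processing, −0.07 for the complex partners and 0.08 for the mitochondrial charging partners.

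The zero point of the fold changes bears on the medians but not on the gap between compartments. Recentred on the median of 15 housekeeping genes, −0.19, the cytosolic median was −0.39 and the mitochondrial median turned to 0.14, with 12 cytosolic genes lower (8.84% of all tested genes were lower and 13.8% higher on that zero point) and Cars2 as the one member higher. Of the 15 housekeeping genes 3 were themselves called lower and 0 higher (12.5% and 7.45% of all tested genes). At an unadjusted p under 0.05 in the DESeq2 test, 7 were lower and 0 higher, against 17.9% and 12% of all tested genes. Their median need not be a zero point without change. The difference of the medians, −0.52, does not depend on the zero point. Recentred on genes with a mean of at least 100 (median −0.05), 13 members were lower and 1 higher, beside 11.2% and 8.5% of all tested genes.

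Other thresholds left these counts close to the first. At an adjusted p under 0.01, 13 members were lower and 1 higher (9.11% and 4.37% of all tested genes), and the same counts came from an adjustment over every gene with a p-value (7.88% and 4.49%) and from p-values of the shrunken change with its SE (9.32% and 4.47%). With adjustment over genes with a mean of at least 100, 14 members were lower, Farsb being the one added, and 1 higher (19.5% and 10.4%).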

How the data were processed

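RNA-seq of untreated and dTAG-13-treated iMEF was examined from the deposited gene table. According to the methods, the authors added ERCC spike-in RNA, used Trim Galore for trimming, STAR for alignment to mm10 and featureCounts for counts per gene, normalized to the spike-ins and compared the groups with DESeq2. Versions are not given in the sources used here, and the submitters' processing notes name mm10 and DESeq2. The deposited signal of a gene is its mean normalized read count over all libraries. The deposited log2 values compare dTAG-13 with untreated cells and were shrunken by the authors, and the deposited standard error, a score on the log2 scale, belongs to them. The deposited p-value and its Benjamini-Hochberg adjusted value are those of the authors' DESeq2 test. The fold changes and p-values are the authors' own, because no column held values per library and no fit could be made. The 2 lists of lower and higher genes were not used, and 0 columns of per-sample values were left out.

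Compartments, classes and gene lists were set from general knowledge, and the members and lists were chosen with earlier results of these data known. Of 38 rows that the symbol rule found, 37 are named, and 1 is not reported here and stands in no count or median over the members. Of the other lists, counts are given with up to 4 genes of the smallest p in the direction of the median and 2 against it. Genes named outside that rule (Atf4, Ddit3, Trnt1, the cell markers and the overlapping neighbours) were chosen after their values were seen. The printing of the Yars and Iars windows was also decided then. Recentred p-values came from the signed z of the deposited p moved by the shift over the standard error, with adjustment over all tested genes, and this step was tested on simulated data. Adjusting the deposited p-values over the tested genes gave the deposited adjusted values. Alternatives were the zero point, the threshold, the set of genes for the adjustment, the p from the shrunken change, and the grouping by compartment. Positions came from GENCODE M21 (GRCm38), matched by Ensembl identifier for 37 of 37 members, and promoters from RefSeq (GRCm38.p6), matched by symbol. Python 3.11.15, numpy 2.4.6, pandas 2.3.3, scipy 1.17.1 and matplotlib 3.10.9 were used.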

Additional observations from a re-analysis of the deposited data

How the results depend on the processing

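All 13 lower members kept their call in 6 of 7 other settings of zero point, threshold, adjustment and p. Among these, the setting of an unadjusted p under 0.05 could not lose such a call. Recentred on the housekeeping genes, 12 kept it and Tars did not (adjusted p = 0.083), the cytosolic and mitochondrial medians became −0.39 and 0.14, and over all tested genes 1483 were lower and 2314 higher in place of 2093 and 1250. At an unadjusted p under 0.05, 18 members were lower (as were 17.9% of all tested genes), of which 2 were mitochondrial (Ears2 and Tars2). Farsb passed where adjustment ran over genes with a mean of at least 100 (adjusted p = 0.047). Cars2 was higher in all 7 settings, with adjusted p-values, in the 6 that have one, from 0.00039 to 0.024. Both recentrings moved its value upwards, and the unadjusted threshold could not lose its call. With Tarsl2 counted by its name as mitochondrial, or Gars and Kars left out, 13 and 12 cytosolic genes were lower. The difference of medians ran from −0.55 to −0.52 over these groupings and a minimum mean of 100, and the cytosolic value was the lower in 12 of 12 pairs with both means at that level. No paired analysis was possible because single libraries have no columns in the table, and for the same reason no replicate could be left out.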

Other observations

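The selenocysteine tRNA is first loaded with serine by the product of Sars and then converted. Of 4 genes of the selenocysteine pathway 1 was lower, against 12.5% of all tested genes, a list too short to set apart from that share. This was the selenophosphate synthetase gene Sephs2, at −0.50 ± 0.21 on the log2 scale (deposited DESeq2 adjusted p = 0.039). Its call was lost on both other zero points, with adjustment over every gene with a p-value, with p from the shrunken change and at the stricter threshold (adjusted p over the alternatives 0.028 to 0.19). The kinase gene Pstk had −0.32 ± 0.23, Sephs1 had −0.24 ± 0.19 and Sepsecs, for the last step, 0.11 ± 0.22.

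Of 4 genes for the proofreading of charged tRNA, 1 was lower, against the same 12.5%: the D-aminoacyl-tRNA deacylase gene Dtd1, at −0.54 ± 0.23 (deposited DESeq2 adjusted p = 0.034). That call was lost on both other zero points, with p from the shrunken change and at the stricter threshold (adjusted p over the alternatives 0.024 to 0.16). Dtd2 had −0.27 ± 0.30, and the editing genes Aarsd1 and Prorsd1, for alanine and proline tRNA, had 0.12 ± 0.37 and 0.09 ± 0.16.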
